A study of Mus musculus with 16 samples.

Results

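The genes described here encode the interleukin-6 family of cytokines, its receptors and the STAT3 arm of its signalling: the ligands Il6, Il11, Lif and Ctf1, the receptor chains Il6st, Il11ra1, Lifr and Osmr, and the transducer Stat3 with its feedback inhibitor Socs3. The 10 genes were chosen by gene symbol from a list drawn up with the levels and the Fgf8b and depot differences of these libraries already known, so that their values are given as a description with no p-value. They make up 10 of the 29060 genes named in the table and 75 of the entries used, and all 10 passed the filter on low values. RNA was sequenced from primary mouse preadipocytes grown out of the stromal-vascular fraction, the mixed non-adipocyte cells of fat, of interscapular brown or inguinal white fat. All cultures came from UCP1-reporter mice on a C57BL/6N background, so controls carry the reporter too, and the labels give neither the age nor the sex of the animals. The groups were white control (libraries 1, 3, 5 and 7), white Fgf8b (libraries 2, 4, 6 and 8), brown control (libraries 9, 11, 13 and 15) and brown Fgf8b (libraries 10, 12, 14 and 16), with 4 libraries in each. Fgf8b is a secreted splice form of fibroblast growth factor 8. No source used here states its dose, its time or the nature of the control treatment.

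Cytokines of this family bind a receptor chain of their own and then the shared chain gp130, the product of Il6st, or pair gp130 with a second signalling chain such as the LIF receptor. Receptor-bound Janus kinases then phosphorylate STAT3, which enters the nucleus and induces, among others, Socs3, whose product binds gp130 and the kinases and ends the signal. In fat, preadipocytes are a known source of IL-6 and IL-11, and IL-11 and LIF are known for acting on the differentiation of fat precursors.

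The promoter sequences of the 3 ligands with a motif match and of Socs3 are shown because the ligands Il11 and Lif were both higher with Fgf8b, Il6 was not, and Socs3 is the textbook STAT3 target of the family. Each is the 250 bases before the RefSeq gene start in GRCm38.p6, written 5′ to 3′ on the gene's own strand, with capitals marking the motif matches. The Il11 promoter, the second of 2 start sites listed, lies at chr7:4778142-4778391 on the minus strand. That of Lif lies at chr11:4257318-4257567 on the plus strand and that of Il6 at chr5:30012864-30013113 on the plus strand. That of Socs3 lies at chr11:117969367-117969616 on the minus strand.
Il11: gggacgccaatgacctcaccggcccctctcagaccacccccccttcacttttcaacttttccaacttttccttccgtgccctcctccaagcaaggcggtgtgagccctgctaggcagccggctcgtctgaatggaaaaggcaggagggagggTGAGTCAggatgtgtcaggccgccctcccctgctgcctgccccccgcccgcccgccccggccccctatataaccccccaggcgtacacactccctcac
Lif: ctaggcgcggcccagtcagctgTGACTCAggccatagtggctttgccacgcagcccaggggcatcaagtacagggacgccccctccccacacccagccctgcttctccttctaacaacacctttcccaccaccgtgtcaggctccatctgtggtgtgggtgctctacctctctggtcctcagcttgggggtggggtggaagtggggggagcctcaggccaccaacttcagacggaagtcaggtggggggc
Il6: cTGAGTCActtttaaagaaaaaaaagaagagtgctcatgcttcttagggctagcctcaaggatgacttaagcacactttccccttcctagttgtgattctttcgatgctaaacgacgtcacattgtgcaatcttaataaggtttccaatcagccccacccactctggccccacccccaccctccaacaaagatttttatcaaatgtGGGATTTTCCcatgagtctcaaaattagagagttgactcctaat
Socs3: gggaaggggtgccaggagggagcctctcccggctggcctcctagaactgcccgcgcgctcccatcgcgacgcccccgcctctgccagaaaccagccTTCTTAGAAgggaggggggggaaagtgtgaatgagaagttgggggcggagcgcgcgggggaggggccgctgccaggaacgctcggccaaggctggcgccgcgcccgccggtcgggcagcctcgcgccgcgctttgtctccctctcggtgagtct
The Il11, Lif and Il6 promoters shown hold a match to the AP-1 motif TGANTCA, and the promoter of the first Il11 start site holds none of the motifs searched. Its bases lie 98 to 92 before the start in Il11, 228 to 222 before it in Lif and 249 to 243 before it in Il6. Over the 32851 mouse promoters of the same length, 6.75% hold this motif on either strand. The Il6 promoter also holds GGGATTTTCC, a match to the NF-kappaB motif (GGG, any 2 bases, TTTCC) found in 1.41% of promoters, at 44 to 35 bases before the start. Socs3 holds TTCTTAGAA, a match to the STAT motif TTCNNNGAA found in 7.02% of promoters, at 154 to 146 bases before the start. The CRE motif TGACGTCA, present in 1.55% of promoters, was matched in none of the 13 promoters listed for the 10 genes. For Ctf1, Il6st, Il11ra1, Lifr, Osmr and Stat3, no promoter held any of these letters in its window. These motifs were searched on both strands, and a match is a string of letters, not a bound site.

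Libraries held between 13.7 and 20.1 M reads, computed from the steps in the deposited values. Within groups, libraries differed more than counting noise allows, with chi-square divided by its degrees of freedom at 1.31 to 2.34, and pairs that include brown control library 15 stood apart at 6.34 to 6.80. Differences of the 10 genes that use its group are therefore given with and without it. The labels call the cells adipocytes and the design text calls them preadipocytes. The summed level of 8 preadipocyte and fibroblast markers was 1551 to 4327 RPKM, and that of 5 adipocyte markers was at most 0.118 RPKM in any library, with Lep and Retn at 0 in every group. White libraries have the lower numbers and brown the higher, so that depot and anything that followed library number cannot be told apart. The design text speaks of 3 cultures and no label says which of the 4 libraries per group share one, so p-values measure only the spread between these libraries, which may be technical.

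Levels below are RPKM (reads per kilobase of transcript, scaled to the reads of the library) of 1 representative transcript per gene, as mean ± SD with n = 4 libraries, and ratios are of these means. The log2 differences were fitted with limma on log2(RPKM + 0.5) summed over all entries of a gene, which understates the change of low genes. A difference is said to be past the threshold where its Benjamini-Hochberg adjusted p over all 15222 genes tested is under 0.05. Since the list was drawn up with these differences known, the share of all genes past the threshold is printed beside each count of the 10 genes and nothing is read from it. In bulk RNA, fewer cells of a type and less RNA per cell cannot be told apart.

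Among the 10 genes, each receptor chain and Stat3 stood above each ligand under control treatment, with Lifr and Ctf1 the closest. Outside the 10, the ligand Clcf1 was at 6.44 RPKM in white and 6.69 in brown controls. That is above each of the other receptor genes listed, of which Il6ra was the highest at 4.08 and 4.35 RPKM. In white control libraries the order was Il6st at 156.8 RPKM, Stat3 at 59.9, Osmr at 34.1, Il11ra1 at 33.7, Socs3 at 10.7, Lifr at 7.40, Ctf1 at 3.24, Lif at 1.34, Il6 at 0.807 and Il11 at 0.743. Neighbours in this order did not overlap between libraries except Osmr with Il11ra1, Lif with Il6, and Il6 with Il11. With Fgf8b in brown cells the order was Il6st at 55.1 RPKM, Stat3 at 49.6, Osmr at 42.3, Socs3 at 18.5, Il11 at 12.2, Il11ra1 at 10.3, Lif at 4.14, Lifr at 2.63, Il6 at 2.18 and Ctf1 at 1.61. There Il11 overlapped Il11ra1, Lifr overlapped Il6, and Il6 overlapped Ctf1. Il11 thus stood last of 10 in both control groups, and 6 and 5 of 10 in white and brown Fgf8b libraries.

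**Figure D1:**
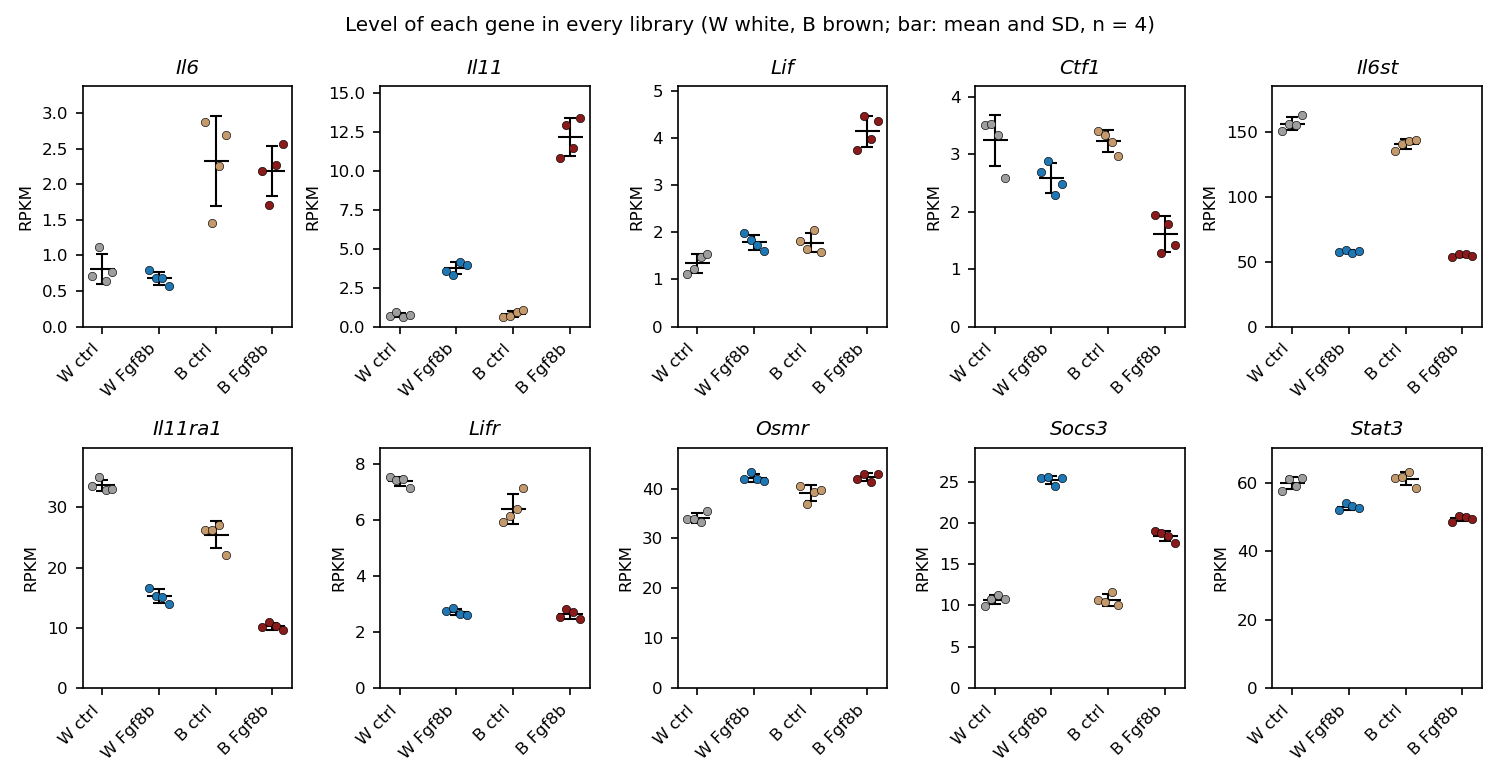
RPKM of the representative transcript of each of the 10 genes (vertical axis, from 0, its own scale in each panel) in the 16 libraries by group (W white, B brown, ctrl control); points are libraries and bars the mean and SD. Il11 reaches 12.2 RPKM in brown Fgf8b libraries against 0.812 in brown controls, while the Il6st, Il11ra1 and Lifr points with Fgf8b all lie below those of their controls.

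Fgf8b went with more ligand mRNA for Il11 and Lif, less mRNA for the receptor chains Il6st, Il11ra1 and Lifr, and more Socs3, in both depots. In white cells, 4 of the 10 genes were past the threshold as higher (Il11, Lif, Osmr and Socs3) and 4 as lower (Il6st, Il11ra1, Lifr and Stat3). Over all genes tested in white cells, 36.3% were called higher and 29.5% lower, which is 5521 and 4486 genes, and with upper-quartile scaling 4738 and 5100. In brown cells the same 4 were higher, 5 were lower (Ctf1 in addition) and only Il6 was not past the threshold, while over all genes tested 36.7% were called higher and 34.7% lower, which is 5582 and 5282 genes, and with upper-quartile scaling 4680 and 6108. The median log2 difference of the 10 genes was -0.18 in white and -0.18 in brown cells, beside 0.04 and 0.01 over all genes tested.

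**Figure D2:**
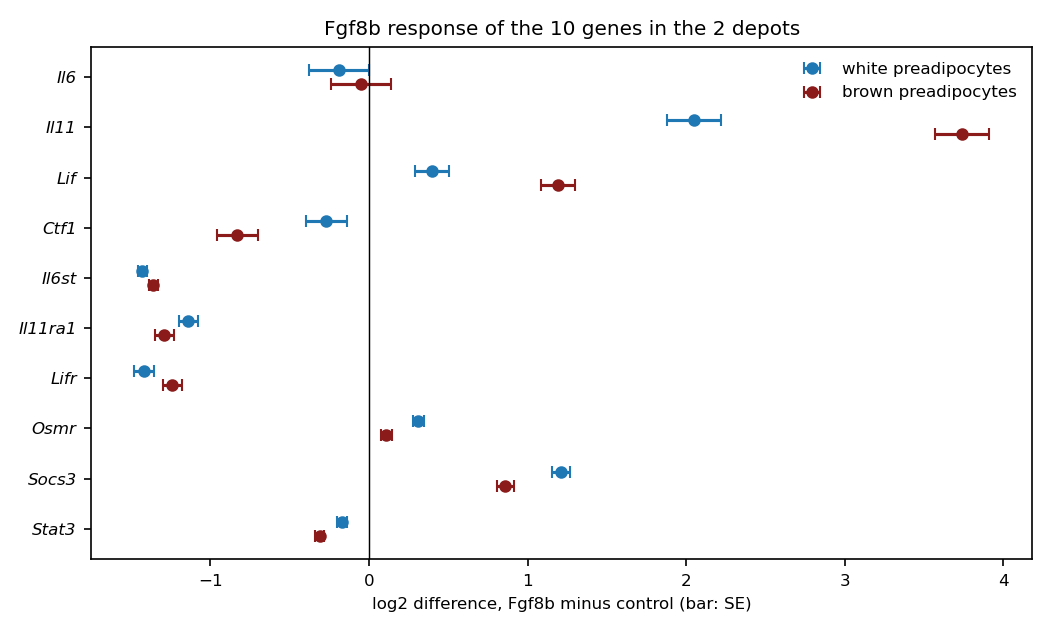
Log2 difference between Fgf8b and control (horizontal axis, bars are the SE of the limma fit) for each of the 10 genes in white (blue) and brown (dark red) preadipocytes. Il11 lies farthest to the right at 2.05 and 3.74, and Il6st, Il11ra1 and Lifr lie left of -1 in both depots.

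Among the ligands, Il11, an inhibitor of fat cell formation in culture, was the gene of the 10 with the largest Fgf8b difference in either depot. Its level was 0.658, 0.910, 0.638 and 0.766 RPKM in the white control libraries and 3.54, 3.34, 4.14 and 3.98 in the white Fgf8b libraries. The brown values were 0.636, 0.652, 0.903 and 1.06 RPKM in control libraries and 10.8, 12.9, 11.5 and 13.4 with Fgf8b. All 8 Fgf8b libraries lay above all 8 controls, and every brown Fgf8b library lay above every white one. The mean went from 0.743 ± 0.125 to 3.75 ± 0.372 RPKM in white cells, 5.05 times as high, and from 0.812 ± 0.204 to 12.2 ± 1.22 in brown cells, 14.97 times as high. On the log2 scale the differences were 2.05 (SE 0.172) and 3.74 (SE 0.172), the second 3.87 without brown control library 15. Behind these levels stand 17 to 35 computed reads in each control library and 120 to 383 in each Fgf8b library. All 3 entries of the gene in the table, which share reads, went the same way. Taken singly, from group means, they gave lower log2 differences of 1.60 to 1.77 in white and 3.24 to 3.27 in brown cells. The constant added before the log lowers the differences of single entries more than that of their sum. The entry values are therefore not on the scale of the 2.05 and 3.74 of the gene. Fitted on the representative transcript alone, the gene's differences were 1.78 in white and 3.28 in brown cells.

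Lif, leukaemia inhibitory factor, moved in the same direction over a narrower range. It stood at 1.11, 1.22, 1.48 and 1.54 RPKM in white control and at 1.98, 1.84, 1.73 and 1.61 in white Fgf8b libraries. Brown libraries held 1.82, 1.65, 2.05 and 1.59 RPKM in control and 3.75, 4.47, 3.99 and 4.36 in Fgf8b libraries. The groups did not overlap within either depot, although the highest white control and the lowest white Fgf8b library were close. Means were 1.34 ± 0.204 and 1.79 ± 0.156 RPKM in white cells, 1.34 times as high with Fgf8b, and 1.78 ± 0.205 and 4.14 ± 0.333 in brown cells, 2.33 times as high. The log2 differences were 0.40 (SE 0.107) and 1.19 (SE 0.107), both past the threshold, and the second was 1.14 without brown control library 15.

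Il6, the founding cytokine of the family, did not follow them. Its level was 0.706, 1.12, 0.645 and 0.762 RPKM in white control and 0.792, 0.675, 0.686 and 0.569 in white Fgf8b libraries. Among brown libraries it was 2.88, 1.46, 2.25 and 2.69 RPKM in control and 2.18, 1.71, 2.27 and 2.57 in Fgf8b libraries. The Fgf8b and control libraries overlapped in each depot, and the brown libraries all lay above the white ones. Fitted log2 differences with Fgf8b were -0.19 (SE 0.187) and -0.05 (SE 0.187), neither past the threshold, and without brown control library 15 the second was 0.03. These levels rest on 10 to 24 reads per white library and 25 to 47 per brown library.

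Ctf1, which encodes cardiotrophin-1, a ligand of the LIF receptor and gp130, was the ligand that was lower with Fgf8b. It stood at 3.52, 3.53, 3.33 and 2.58 RPKM in white control and at 2.69, 2.88, 2.29 and 2.49 in white Fgf8b libraries, which overlap through control library 7. The brown libraries held 3.41, 3.34, 3.22 and 2.96 RPKM in control and 1.95, 1.28, 1.78 and 1.42 in Fgf8b libraries, which do not overlap. The brown Fgf8b levels rest on 26 to 42 reads per library. The brown means were 3.23 ± 0.197 and 1.61 ± 0.311 RPKM, 2.01 times lower with Fgf8b, and the log2 difference was -0.83 (SE 0.129), or -0.87 without brown control library 15. In white cells it was -0.27 (SE 0.129), short of the threshold, and -0.36 and past it without white control library 7. Ctf1 overlaps Ctf2 on the opposite strand in the GENCODE annotation, and strand use is not stated, but Ctf2 was at most 0.0593 RPKM in any group mean.

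The receptor chains formed 2 sets, with Il6st, Il11ra1 and Lifr lower and Osmr slightly higher with Fgf8b. Il6st, the chain shared by IL-6, IL-11, LIF and cardiotrophin-1, was at 151.5, 156.3, 155.7 and 163.5 RPKM in white control and at 57.6, 59.4, 56.8 and 58.1 in white Fgf8b libraries. The brown values were 135.9, 141.0, 143.2 and 144.2 RPKM in control and 53.6, 55.9, 56.1 and 54.8 in Fgf8b libraries. No Fgf8b library came near a control. The means fell from 156.8 ± 4.98 to 58.0 ± 1.076 RPKM in white cells, 2.70 times lower, and from 141.1 ± 3.74 to 55.1 ± 1.18 in brown cells, 2.56 times lower. The log2 differences were -1.43 (SE 0.030) and -1.36 (SE 0.030), the second -1.35 without brown control library 15. The 5 entries of the gene ranged from -1.44 to -1.38 in white and from -1.36 to -1.26 in brown cells.

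Lifr, the chain for LIF and cardiotrophin-1, showed a difference of like size at a much lower level. It stood at 7.54, 7.43, 7.46 and 7.16 RPKM in white control and at 2.75, 2.86, 2.63 and 2.62 in white Fgf8b libraries, means 2.72 times apart. Brown control libraries held 5.92, 6.15, 6.39 and 7.13 RPKM and brown Fgf8b libraries 2.53, 2.83, 2.71 and 2.45, means 2.43 times apart. The groups did not overlap in either depot, and with Fgf8b the libraries of the depots overlapped each other. The log2 differences were -1.42 (SE 0.062) and -1.24 (SE 0.062), the second -1.19 without brown control library 15, the highest of its group.

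Il11ra1, the receptor chain for IL-11, was lower where its ligand was higher. Its level was 33.6, 35.1, 33.0 and 33.1 RPKM in white control and 16.7, 15.3, 15.1 and 13.96 in white Fgf8b libraries, 2.21 times lower in the mean. The brown levels were 26.3, 26.3, 27.1 and 22.2 RPKM in control and 10.1, 11.04, 10.3 and 9.63 in Fgf8b libraries, 2.48 times lower. The groups did not overlap, with log2 differences of -1.14 (SE 0.059) and -1.29 (SE 0.059), the second -1.35 without brown control library 15, the lowest of its group. Its values are uncertain because 57.7% of its 31-base words in the GENCODE transcripts also occur in Gm13305 and 19.3% in Il11ra2, and both of these are listed at 0 in every group. It also overlaps Ccl27a on the opposite strand, whose group means were 1.22 to 1.91 RPKM.

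Osmr, the oncostatin M receptor chain, went the other way by a small step. White control libraries held 33.8, 33.8, 33.2 and 35.4 RPKM and white Fgf8b libraries 41.9, 43.3, 41.8 and 41.6, without overlap and 1.24 times higher in the mean. In brown cells the control libraries held 40.5, 36.9, 39.4 and 39.8 RPKM and the Fgf8b libraries 41.9, 42.8, 41.4 and 43.0, 1.079 times higher. These are log2 differences of 0.31 (SE 0.034) and 0.11 (SE 0.034), and with upper-quartile scaling the second was 0.02 and no longer past the threshold. Without brown control library 15 it was 0.12. Its ligand oncostatin M is encoded by Osm, which was listed at 0.

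Markers of other cell types moved with Fgf8b as well. The summed level of 5 endothelial markers was 11.1 to 11.96 RPKM in white control and 2.39 to 2.92 in white Fgf8b libraries, and 7.62 to 8.87 and 1.46 to 1.88 in brown ones. Most of that sum was Tek, at 9.29 and 0.608 RPKM in white and 6.58 and 0.380 in brown cells, while Cdh5 was at 1.13 and 1.92 in white and 0.571 and 0.844 in brown cells, control first, and the defining marker Pecam1 at a group mean of at most 0.172. That of 4 Schwann cell markers was 5.74 to 7.01 and 1.69 to 2.48 RPKM in white and 9.88 to 12.9 and 2.55 to 3.49 in brown libraries, with the defining marker Sox10 at group means of 0.0265 and 0.0151 in white and 1.23 and 0.929 in brown cells. Of 8 leukocyte markers 7 were in the table, and their sum was 5.36 to 6.04 and 6.81 to 7.53 RPKM in white and 6.38 to 8.91 and 9.31 to 10.1 in brown libraries, with the defining marker Ptprc at a group mean of at most 0.0053. Its members went both ways, with Cd14 at 3.01 and 5.13 RPKM in white and 3.58 and 7.87 in brown cells, Lyz2 at 1.23 and 0.0919 in white and 2.96 and 0.171 in brown cells, and Csf1r at 0.606 and 0.289 in white and 0.940 and 0.596 in brown cells. The preadipocyte and fibroblast sum was 4275 to 4327 and 2153 to 2335 RPKM in white and 2962 to 3484 and 1551 to 1613 in brown libraries. Col1a1 (1776 and 414.9 RPKM in white, 1313 and 234.1 in brown cells) and Ly6a (941 and 392.2, 573.3 and 144.4) were lower with Fgf8b, whereas Thy1 was higher (269.2 and 745.7, 294.1 and 554.7) and Pdgfra was at 94.3 and 98.1 RPKM in white and 67.5 and 85.3 in brown cells. The part of these markers' cells in the differences of the 10 genes was not tested.

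Downstream, Stat3 was slightly lower and Socs3 was higher with Fgf8b. Socs3, the feedback inhibitor, stood at 9.97, 10.8, 11.3 and 10.7 RPKM in white control and at 25.4, 25.5, 24.4 and 25.4 in white Fgf8b libraries. Brown libraries held 10.7, 10.4, 11.7 and 10.006 RPKM in control and 19.0, 18.7, 18.5 and 17.6 in Fgf8b libraries. All Fgf8b libraries lay above all controls, and the white ones lay above the brown ones. The mean was 2.35 times as high with Fgf8b in white cells (10.7 ± 0.557 and 25.2 ± 0.513 RPKM) and 1.73 times as high in brown cells (10.7 ± 0.706 and 18.5 ± 0.594). The log2 differences were 1.21 (SE 0.055) and 0.86 (SE 0.055), the second 0.81 without brown control library 15.

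Stat3, the transcription factor of the pathway, was at 57.8 to 61.5 RPKM in white control and at 52.1 to 54.0 in white Fgf8b libraries. The brown range was 58.5 to 63.2 RPKM in control and 48.5 to 50.4 in Fgf8b libraries, again without overlap. These means were 1.13 and 1.23 times lower with Fgf8b, with log2 differences of -0.17 (SE 0.029) and -0.31 (SE 0.029), the second -0.33 without brown control library 15. The 23 entries of Stat3 did not all go that way in white cells, where they ranged from -0.27 to 0.03, while in brown cells they ranged from -0.38 to -0.15. Stat3 overlaps Stat5a on the opposite strand, whose group means were 3.15 to 4.75 RPKM.

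Between depots, Il6 had the largest difference of the 10 genes under control treatment. Brown controls held 2.87 times the white control level of Il6 (2.32 ± 0.633 and 0.807 ± 0.211 RPKM) and brown Fgf8b libraries 3.21 times that of white Fgf8b libraries (2.18 ± 0.356 and 0.681 ± 0.0909), with no overlap. The log2 differences, brown against white, were 1.34 (SE 0.187) in control and 1.48 (SE 0.187) in Fgf8b libraries, the first 1.26 without brown control library 15. Under control treatment 3 of the 10 genes were past the threshold as higher in brown cells (Il6, Lif and Osmr at 1.34, 0.32 and 0.21) and 3 as lower (Il11ra1, Lifr and Il6st at -0.41, -0.24 and -0.15). Over all genes tested 18.1% were called higher and 15.9% lower. Lif was 1.33 times as high in brown as in white controls, a difference that was no longer past the threshold without white control library 1 or 3 or brown control library 9 or 13 (0.24 to 0.38 over all left-out libraries). Il11, Ctf1, Socs3 and Stat3 overlapped between the depots under control treatment, with ratios of their means between 0.997 and 1.09. Without brown control library 15 the differences past the threshold were 0.37 for Lif, 0.19 for Osmr, -0.35 for Il11ra1, -0.29 for Lifr and -0.17 for Il6st. Those of Il11, Ctf1, Socs3 and Stat3 were -0.06, 0.00, 0.00 and 0.04 with it and -0.19, 0.04, 0.05 and 0.06 without it, none past the threshold.

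With Fgf8b, 8 of the 10 genes differed between depots, among them Il6, Lif, Il11ra1 and Il6st, which also did under control treatment. Il11 was 3.24 times and Lif 2.31 times as high in brown as in white Fgf8b libraries, with log2 differences of 1.63 and 1.11. Ctf1 was 1.61 times, Il11ra1 1.49 times and Socs3 1.37 times lower in brown cells, at -0.56, -0.56 and -0.35. Counting Il6, 3 genes were past the threshold as higher and 5 as lower, the others being Stat3 at -0.10 and Il6st at -0.08. Over all genes tested 26.9% were called higher and 24.7% lower, which is 4098 and 3760 genes, and with upper-quartile scaling 3623 and 4213. Lifr and Osmr overlapped between the depots, and the Il6st call was lost without white Fgf8b library 4 or 8 or brown Fgf8b library 10, at -0.07 to -0.09 over all left-out libraries.

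The Fgf8b response itself differed between depots for 6 of the 10 genes. The interaction term (brown response minus white response, log2) was past the threshold as higher for Il11 at 1.69 (SE 0.243) and Lif at 0.79 (SE 0.151). As lower it was past the threshold for Ctf1 at -0.56 (SE 0.183), Socs3 at -0.35 (SE 0.077), Osmr at -0.20 (SE 0.048) and Stat3 at -0.14 (SE 0.041). Over all genes tested 17.1% were called higher and 17.8% lower, which is 2604 and 2709 genes, and with upper-quartile scaling 2294 and 3053. Without brown control library 15 the values for Il11ra1 (-0.15 with it and -0.21 without) and Lifr (0.18 and 0.23) passed the threshold too. The other 6 without it were 1.82 for Il11, 0.74 for Lif, -0.60 for Ctf1, -0.39 for Socs3, -0.19 for Osmr and -0.16 for Stat3. That of Ctf1 was lost without white control library 7 or brown Fgf8b library 12 (-0.64 to -0.47 over all left-out libraries). For Il6st the term was 0.07 (SE 0.042) and for Il6 0.14 (SE 0.264), or 0.08 and 0.22 without that library, none of them past the threshold. The 4 depot and treatment comparisons share libraries, so their values are set side by side and not counted as separate evidence.

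The other genes of the pathway were taken from lists of 36 ligands, receptors, kinases, inhibitors and STAT3 targets, of which 29 passed the filter. With Fgf8b, 12 of these 29 rose and 10 fell in white cells, and 11 rose and 14 fell in brown cells. Over all genes tested 36.3% were called higher and 29.5% lower in white cells, and 36.7% and 34.7% in brown cells. The counts of each list below are to be set beside these shares. The median log2 difference of the 29 genes was 0.08 in white and -0.15 in brown cells. The p-values that follow are limma's, adjusted over all genes tested, and the lists too were drawn up with earlier results of these libraries known.

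Of 6 other ligands 2 passed the filter, and 1 of them rose in white and both in brown cells. Clcf1, a cytokine that signals through the CNTF receptor with LIFR and gp130, rose from 6.44 ± 0.329 to 11.1 ± 0.796 RPKM in white cells (log2 0.70, limma adjusted p = 2.76e-08). In brown cells it rose from 6.69 ± 1.34 to 21.2 ± 1.35 RPKM (log2 1.66, limma adjusted p = 7.13e-14). The response was larger in brown cells by 0.95 (limma adjusted p = 4.47e-07), as for Il11 and Lif. Cntf, ciliary neurotrophic factor, rose in brown cells by 0.60 (limma adjusted p = 0.0171), a call that was lost without brown control library 9 or brown Fgf8b library 16. Il31 was listed at 0, and Il27 and Ebi3 did not pass the filter.

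Of the 4 other receptor genes, 2 fell in white cells, and 1 rose and 3 fell in brown cells. Il6ra, the chain that binds IL-6 itself, rose in brown cells from 4.35 ± 0.460 to 6.59 ± 0.258 RPKM (log2 0.57, limma adjusted p = 1.89e-05) and was 4.08 ± 0.585 and 4.12 ± 0.183 RPKM in white cells. Its response differed between depots by 0.49 (limma adjusted p = 0.00684). Il27ra, a receptor chain that pairs with gp130 for IL-27, fell in brown cells (1.53 to 1.09 RPKM, log2 -0.44, limma adjusted p = 0.0013), with a difference of response of -0.48 (limma adjusted p = 0.0207). The genes that fell in both depots, named after their values were seen because they average under 1 RPKM, were Cntfr and Il31ra. Il31ra, which pairs with Osmr to bind IL-31, went from 0.533 to 0.0188 RPKM in white and from 0.580 to 0.0179 in brown cells (limma adjusted p = 1.18e-08 and 4.73e-09). Cntfr, the chain for Cntf and Clcf1, went from 0.908 to 0.464 RPKM in white and from 1.084 to 0.461 in brown cells (limma adjusted p = 0.00279 and 0.00127).

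Of the 5 kinases and STATs, 1 rose and 3 fell in white cells, and 4 fell in brown cells. Jak1, the kinase bound to gp130, fell from 71.1 ± 1.02 to 53.3 ± 0.712 RPKM in white cells (log2 -0.39, limma adjusted p = 7.31e-09) and from 65.2 ± 3.34 to 51.7 ± 0.982 in brown cells (log2 -0.35, limma adjusted p = 3.05e-08). Stat5a fell in white and brown cells (log2 -0.28 and -0.54, limma adjusted p = 0.0101 and 2.78e-05), and Stat5b fell in both depots (log2 -0.30 and -0.23, limma adjusted p = 2.5e-05 and 0.000346).

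Of the 6 inhibitors, 2 rose and 3 fell in white cells, and 3 rose and 3 fell in brown cells. Socs2, known as a brake on growth hormone signalling, fell where Socs3 was higher, from 21.7 ± 0.987 to 7.68 ± 0.513 RPKM in white cells (log2 -1.51, limma adjusted p = 6.89e-14). In brown cells it fell from 15.6 ± 1.20 to 5.51 ± 0.291 RPKM (log2 -1.50, limma adjusted p = 5.68e-14). Cish, a STAT5 target and inhibitor, fell in white and brown cells (log2 -0.58 and -0.52, limma adjusted p = 1.23e-06 and 4.18e-06). Socs1 fell in white cells from 10.4 to 8.13 RPKM (log2 -0.33, limma adjusted p = 0.0123), a call lost without white control library 1. In brown cells it rose from 5.79 to 7.77 RPKM (log2 0.42, limma adjusted p = 0.00213), and the difference of response was 0.75 (limma adjusted p = 0.000929). Ptpn2, a phosphatase that acts on STATs and Janus kinases, rose by 0.20 in white and 0.47 in brown cells (limma adjusted p = 0.00326 and 2.47e-07), a difference of response of 0.27 (limma adjusted p = 0.00918). Pias3, a STAT3 inhibitor, stood at 15.2 and 14.9 RPKM in white cells and fell from 15.4 to 11.1 in brown cells (limma adjusted p = 4.99e-08, difference of response -0.42, limma adjusted p = 7.65e-05).

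**Figure D3:**
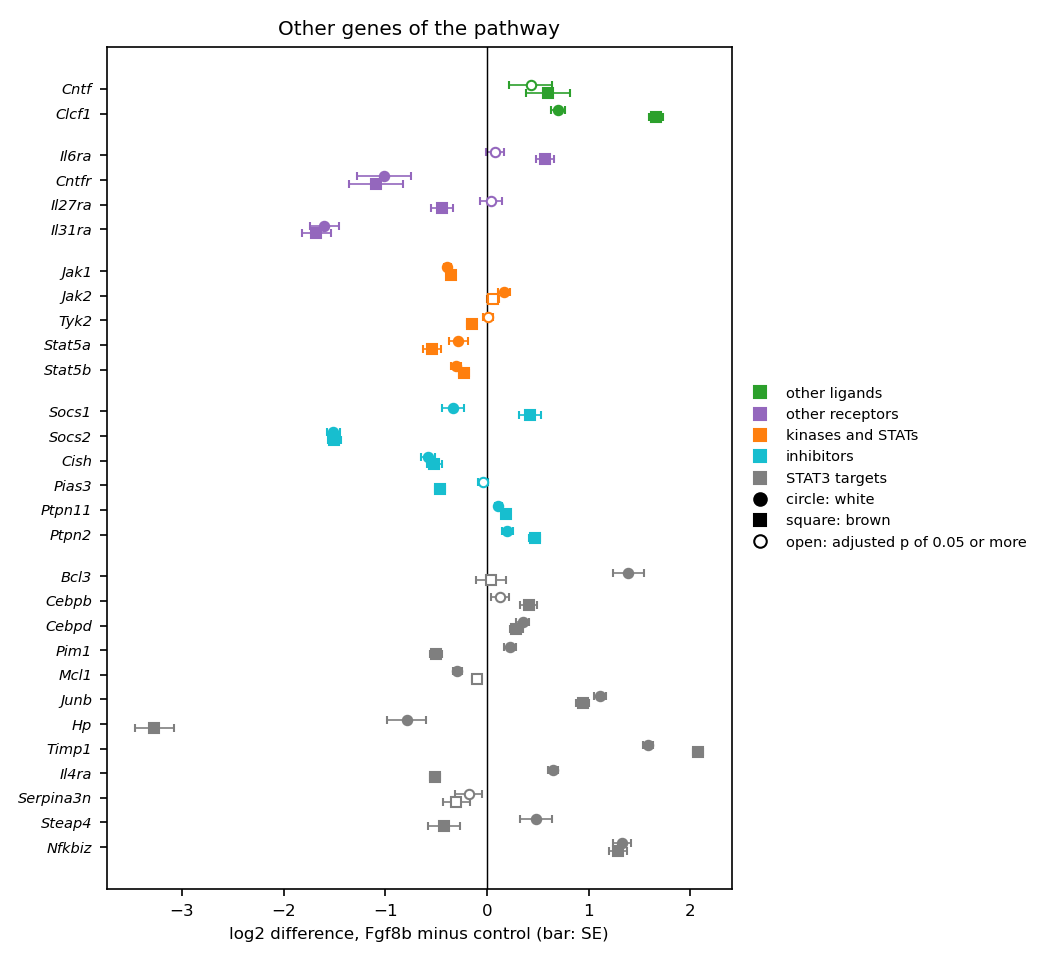
Log2 difference between Fgf8b and control (horizontal axis, bars are the SE) for the 29 other pathway genes that passed the filter, grouped by list and colour, in white (circles) and brown cells (squares); open symbols had an adjusted p of 0.05 or more. Socs2 lies near -1.5 in both depots, Timp1 at 1.58 and 2.08, and Bcl3 at 1.39 in white and 0.04 in brown cells.

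Of 15 STAT3 targets 12 passed the filter, and 8 rose and 2 fell in white cells while 5 rose and 4 fell in brown cells. The shares over all genes tested were 36.3% higher and 29.5% lower in white cells, and 36.7% and 34.7% in brown cells. STAT3 activity itself was not measured. Timp1, an inhibitor of metalloproteases, rose from 170.8 ± 10.02 to 509.1 ± 17.5 RPKM in white cells (log2 1.58, limma adjusted p = 1.63e-15) and from 193.7 ± 11.4 to 818.9 ± 42.9 in brown cells (log2 2.08, limma adjusted p = 2.05e-17). Nfkbiz, a nuclear NF-kappaB regulator, rose 2.61-fold in white and 2.41-fold in brown cells (limma adjusted p = 9.99e-11 and 1.23e-10). Junb, a subunit of AP-1, rose from 18.9 to 40.7 RPKM in white cells (log2 1.11, limma adjusted p = 6.48e-12) and from 21.5 to 41.2 in brown cells (log2 0.94, limma adjusted p = 5.96e-11). Bcl3, a nuclear NF-kappaB cofactor, rose from 5.46 ± 0.990 to 14.3 ± 0.979 RPKM in white cells (log2 1.39, limma adjusted p = 1.68e-07) and was 5.03 ± 0.406 and 5.36 ± 1.01 in brown cells. Its responses differed by -1.35 (limma adjusted p = 7.97e-05). Il4ra, the interleukin-4 receptor chain, rose in white cells from 34.8 to 54.1 RPKM (limma adjusted p = 4.05e-10) and fell in brown cells from 74.6 to 51.8 (limma adjusted p = 9.48e-09). The difference of response was -1.16 (limma adjusted p = 3.41e-10). Pim1, a serine/threonine kinase, likewise rose in white cells (8.06 to 9.54 RPKM, limma adjusted p = 0.00213) and fell in brown cells (6.96 to 4.89, limma adjusted p = 3.16e-07), with responses different by -0.72 (limma adjusted p = 1.9e-06). Hp, haptoglobin, named after its values were seen, was 3.27 ± 0.305 RPKM in brown controls, 0.134 ± 0.0926 in brown Fgf8b, 0.216 ± 0.0866 in white control and 0.0222 ± 0.0256 in white Fgf8b libraries. Lcn2, Lrg1 and Saa3 did not pass the filter.

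Between depots, 8 of the 29 genes were higher and 10 lower in brown cells under control treatment, and 8 were higher and 12 lower with Fgf8b. Over all genes tested 18.1% were called higher and 15.9% lower under control treatment, and 26.9% and 24.7% with Fgf8b. Under control treatment the inhibitors Socs1, Cish and Socs2 were lower in brown cells, at log2 differences of -0.82, -0.53 and -0.49 (limma adjusted p = 9.11e-06, 1.41e-05 and 3.3e-06). Stat5b, Tyk2 and Jak1 were lower too, at -0.22, -0.16 and -0.12 (limma adjusted p = 0.00169, 0.0109 and 0.00786). Among the STAT3 targets, Il4ra and the acute-phase protease inhibitor Serpina3n were higher in brown controls, at 1.07 and 0.58 (limma adjusted p = 1.98e-12 and 0.00196), and Nfkbiz was lower, at -0.45 (limma adjusted p = 0.000432).

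With Fgf8b, Clcf1 and Il6ra were higher in brown than in white cells, at 0.91 and 0.61 (limma adjusted p = 2.56e-09 and 2.15e-05), and Il27ra was lower, at -0.58 (limma adjusted p = 0.000204). Tyk2 and Stat5a were lower, at -0.33 and -0.30 (limma adjusted p = 1.17e-05 and 0.00873). Jak2, another Janus kinase, was at -0.16 (limma adjusted p = 0.0288), a call lost without any 1 of white Fgf8b libraries 4, 6 and 8 and brown Fgf8b libraries 10 and 14. Socs2, Cish and Pias3 were lower, at -0.48, -0.47 and -0.42 (limma adjusted p = 2.07e-06, 3.04e-05 and 6.63e-07). Of the STAT3 targets, Bcl3 and Pim1 were lower, at -1.53 and -0.94 (limma adjusted p = 1.29e-07 and 2.4e-10), and Timp1 was higher, at 0.68 (limma adjusted p = 1.59e-09). The response of Timp1 to Fgf8b was larger in brown cells by 0.50 (limma adjusted p = 1.68e-05).

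For each ligand, the genes most like it over the 16 libraries were found by Pearson's r of log2(RPKM + 0.5) among the 9668 genes that reached 5 RPKM in a group mean. These values describe a pattern over 4 groups that share treatment, depot and depth, and carry no p. The nearest to Il11 were Strap (r = 0.994), Hspd1 (r = 0.992) and Ftsj3 (r = 0.991), with Hspd1 at 39.9 and 64.5 RPKM in white and 38.4 and 90.2 in brown cells, control first. Sox9 (r = 0.983), Sdc4 (r = 0.978) and Smg5 (r = 0.973) were nearest to Lif, with Sox9 at 9.34 and 11.97 RPKM in white and 11.1 and 24.5 in brown cells. Nearest to Il6 were Hoxd8 (r = 0.948), Cp (r = 0.942) and Syne1 (r = 0.931), with Cp, ceruloplasmin, at 2.47 and 2.48 RPKM in white and 13.3 and 13.01 in brown cells. Smarcd3 (r = 0.966), Fut11 (r = 0.954) and Ebpl (r = 0.951) were nearest to Ctf1, with Smarcd3 at 11.3 and 9.32 RPKM in white and 10.99 and 6.92 in brown cells.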

How the data were processed

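Total RNA of 16 libraries was sequenced after TruSeq RNA Sample Prep kit v2 preparation, per the labels' protocols, and CASAVA and bcl2fastq are named, without versions, in the submitters' processing notes. The aligner, counter and genome build were not given in the sources used here. The authors deposited 1 table of 168326 transcript entries by 16 libraries, with decimal commas and a header that names no unit. The deposited values behave as RPKM: times transcript length they are whole multiples of 1 step per library for 95.6 to 96.0% of values up to 50 reads (tolerance 0.1 read), and this gave the depth of 13.7 to 20.1 M reads per library. Of the entries, 23172 without a gene symbol and 808 of 299 repeated accessions (no entry of the 10 genes among them) were left out.

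Entries were summed per gene (29060 genes). The 15222 genes that reached 0.5 RPKM in 4 or more libraries were fitted with limma 3.58.1 in R 4.3.3 (trend, robust) on log2(RPKM + 0.5) over 4 group means, with Benjamini-Hochberg adjustment over all genes and a threshold of 0.05. The fit was first run on simulated counts of equal depth with no library apart, unlike these data. That run checks the code and not the calls made here. Levels are of the RefSeq entry with the highest mean. Reads of single genes were computed from the level, the depth and a transcript length. That length was the one that brought the values of the entry closest to whole reads. For 60 Ensembl entries of known length, this search came within 1 base in 44, so the reads given are estimates. The genes and lists were chosen with earlier results of these data known. The results of 2 genes of the lists are not reported here, and the lists' counts leave them out. Beside all 10 genes, the rule for named genes took, per list and comparison, the 3 called genes of at least 1 RPKM mean with the largest difference, and the 3 genes most like each ligand. Motifs were searched in RefSeq promoters of GRCm38.p6, in which all 10 genes were matched by symbol. Alternatives covered the pseudocount, the filter, scaling, entries, moderation and each library left out.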

Additional observations from a re-analysis of the deposited data

Results flagged for a closer look

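Among 40 groups of 4 libraries (10 genes in 4 groups), 1 library stood apart by Dixon's 95% criterion: Socs3 in white Fgf8b library 6, the lowest of its group at 24.4 RPKM beside 25.4 to 25.5 in the others. Chance alone flags about 1 in 20 groups. The response to Fgf8b differed between depots by the interaction term of the limma fit, brown minus white on the log2 scale, for Il11 (1.69), Lif (0.79), Ctf1 (-0.56), Socs3 (-0.35), Osmr (-0.20) and Stat3 (-0.14). These 6 genes belong to a list drawn up with such differences known.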

How the results depend on the processing

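The counts of genes past the threshold kept within 1.5 times of those reported under the 9 alternatives (8 for the difference of responses, which a fit of 2 groups cannot give) and the 16 left-out libraries. Of 50 differences of the 10 genes (5 comparisons), 37 were past the threshold, none of these changed sign under any alternative, and 4 lost the call under at least 1. Besides those named in the report, the Lif depot difference under control treatment (0.32) lost its call in a fit of the 2 groups alone, the Il6st depot difference with Fgf8b with median-of-ratios scaling (-0.07), and the Osmr response in brown cells with median-of-ratios (0.07) as well as upper-quartile scaling (0.02). The Ctf1 response in white cells gained a call with median-of-ratios (-0.32) and upper-quartile scaling (-0.33), with the representative transcript alone (-0.27) and without the variance trend (-0.27). The cause was not tested. No paired analysis was possible because no library number is shared between groups and no label pairs libraries. Depth limits the precision of Il6 and, in controls, of Il11, which rest on 10 to 47 and 17 to 35 reads per library. The same holds for Ctf1 in brown Fgf8b libraries, at 26 to 42 reads per library.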
